A study of Mus musculus with 18 samples.

Results

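Cerebellar granule neurons cultured with DMSO (CGN) were compared here with their progenitors cultured with DMSO (CGNP), on 5 of the 18 arrays of a study of the histone methyltransferase DOT1L. The 5 arrays were chosen by their labels and not by any measured value, and each array is a primary culture from the cerebellum of P7 wild-type mice of the NMRI strain. The 3 CGNP arrays held cells grown with Sonic hedgehog (SHH) for 1 day in vitro, with DMSO in the last 4 h. Their labels name 2 mice, with one array from mouse 29, one from mouse 30 and one from both together. They therefore cannot be counted as 3 independent animals. The 2 CGN arrays, replicates 1 and 3 with a mouse label each, held cells grown with fetal bovine serum (FBS) and treated with DMSO for 44 h. The labels conflict on their age in culture, giving 2 days for replicate 1 and 4 days for replicate 3 in one field and 1 day for both in another. The study's methods describe a single schedule, with DMSO added 4 h after plating. The same CGN experiment holds 2 more arrays whose labels name both DMSO and the DOT1L inhibitor SGC0946, and these entered no comparison.

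Granule neurons are the most numerous neurons of the brain. Around birth their progenitors divide in the outer layer of the cerebellum under the mitogen SHH, which Purkinje cells secrete. They then leave the cell cycle, grow axons, migrate inwards past Purkinje cells along Bergmann glia, and build excitatory synapses. A culture taken at P7 and kept with SHH retains dividing progenitors, and one kept without SHH moves towards postmitotic neurons. Both kinds of culture also hold cells that are not of the granule lineage, among them glia and vascular or meningeal cells.

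Each array measured 22180 genes on the log2 scale, with values of the 5 arrays brought to one common distribution. All differences below are CGN minus CGNP, and 1 unit is a doubling. A gene was called where limma's adjusted p was below 0.05, the difference was at least 2-fold and no array of one group overlapped the other group. Levels up to 4.92 are called dim here, since 95% of 1390 genes for smell receptors, which granule cells are not known to use, had a mean below it. A total of 2124 genes met all 3 conditions, 9.58% of those tested. Of these 1037 were higher in CGN (4.68%) and 1087 were lower (4.9%). On this common scale the changes in the upward direction were larger, since 200 genes were at least 4-fold higher and 90 at least 4-fold lower. The 4-fold counts were not made on other scalings. The median difference of all genes was −0.02, and the median standard error of a difference was 0.14. Arrays of one group correlated at 0.990 to 0.993 over genes, arrays of different groups at 0.951 to 0.953.

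The split between higher and lower depended on the scaling of the arrays. The values as deposited had array medians of 4.75 to 4.76 in CGNP and 4.65 in CGN, and their whole distributions were 0.211 to 0.250 apart between the experiments against 0.010 to 0.076 within one. On the deposited values 613 genes were called higher and 2480 lower, with the median of all genes at −0.23. With each array centred on its median 728 were higher and 1994 lower, with the median of all genes at −0.12. Of 172 called genes picked for description 0 changed direction under either scaling, and 24 were not called on the deposited values, among them Snap25, Npas4, Grin2b, Slc2a3, Slc1a3, Olig2 and Pdgfra. Where a list median is given below and changed direction on the deposited values, both values are given. Medians of further lists turned negative there too. Among them were early postmitotic neurons (0.01 to −0.40), glycolysis (0.03 to −0.36) and microglia (0.25 to −0.18). Cell type, SHH or serum, time in culture and experiment all differed between the groups and cannot be told apart. A p-value therefore measures the spread between cultures of one experiment.

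**Figure D1:**
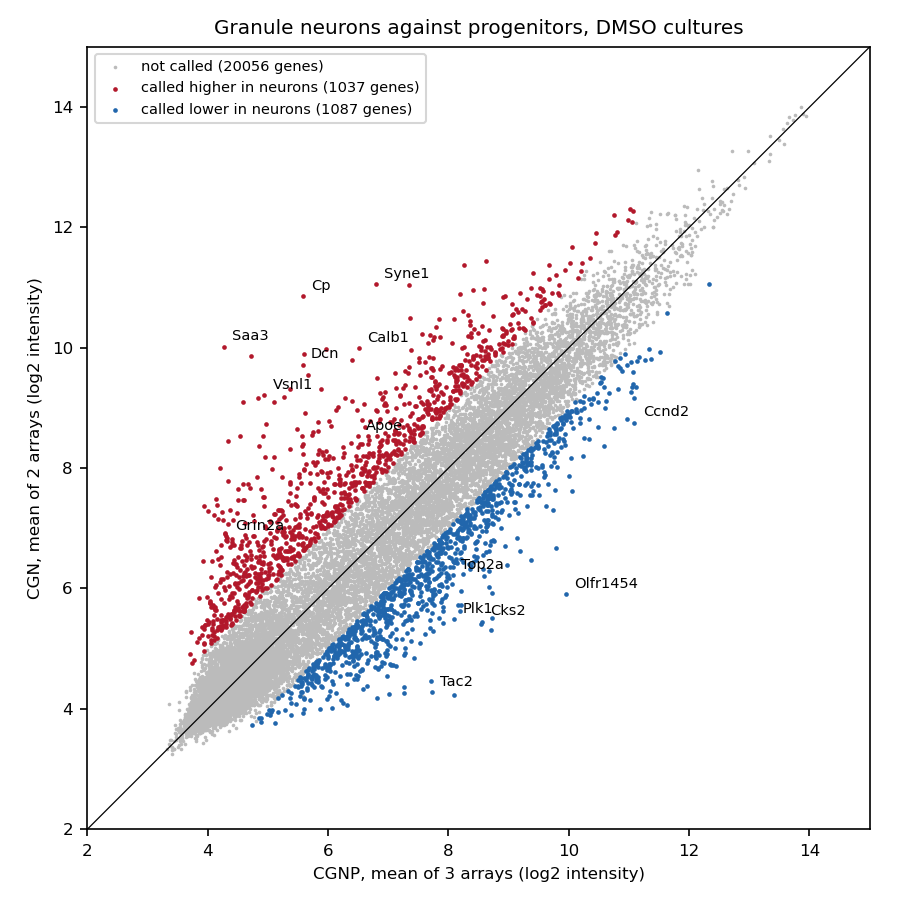
Mean log2 intensity of each of 22180 genes in the 3 CGNP arrays (horizontal) against the 2 CGN arrays (vertical), with the diagonal marking equal levels. Called genes are coloured, 1037 above the diagonal and 1087 below it, and Saa3, Cp and Vsnl1 lie far above while Olfr1454, Tac2 and Cks2 lie far below.

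Among the 38 gene lists compared, the list of mitosis had the largest share of calls. Of 33 measured genes of the G2/M list, which act from chromosome condensation to division, 30 were called lower and 0 higher, with a median of −1.67. The remaining 3, Kif11, Mybl2 and Cenpa, had differences of −0.83, −0.77 and −0.70. Plk1, the kinase that drives mitotic entry and spindle assembly, was measured at 8.17, 7.92 and 8.18 in CGNP and at 5.53 and 5.46 in CGN. The groups were far apart, and the difference was −2.59 (SE 0.17, adjusted p = 2.2e-06 by limma). Outside the list Cks2, a small binding partner of cyclin-dependent kinases, was at 8.48, 8.53 and 8.66 in CGNP and at 5.19 and 5.71 in CGN, 8.62-fold lower. After Plk1 the largest differences of the list were those of Kif2c, a microtubule-depolymerizing kinesin (−2.42), Sgo1, which protects centromeric cohesion (−2.36), Kif23, a kinesin of cytokinesis (−2.36), and Ect2, which starts the cleavage furrow (−2.31).

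Genes of DNA replication fell in part. Of 28 measured genes of the G1/S list 15 were called lower and 0 higher, with a median of −1.05. Rrm2, the subunit of ribonucleotide reductase that limits the supply of deoxynucleotides, was at 7.02, 6.98 and 6.95 in CGNP and at 4.51 and 4.59 in CGN. This was a difference of −2.43 (SE 0.18, adjusted p = 5.6e-06 by limma). The helicase subunits Mcm2, Mcm3, Mcm5, Mcm6 and Mcm7 and the transcription factor E2f1 were called lower too, E2f1 by 2.36 on the log2 scale. The list was not uniform, and Pcna, the sliding clamp of DNA polymerases, had a difference of 0.16 with overlapping arrays, as had Rrm1 (−0.01) and Pola1 (0.17).

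Promoters of both lists were read to show the sequence context of these genes. RefSeq gives 250 bases before and 50 after an annotated start for 16990 of the genes tested, including 27 of the G2/M and 24 of the G1/S list. Mitotic genes are known for the cell cycle homology region (CHR), read by the DREAM and B-MYB complexes, downstream of CCAAT boxes bound by NF-Y. The CHR letters TTTGAA stood on either strand in 20 of 27 G2/M promoters (74.1%), in 4 of 24 G1/S promoters (16.7%) and in 18.1% of all 27025 promoters of the table. The NF-Y letters CCAAT stood in 74.1% of the G2/M, 66.7% of the G1/S and 37.9% of all promoters. The E2F site was searched as TTCCCGC, as the form TTTGGCG and as the form TTCGCGC, and matches can overlap on opposite strands. It stood in 15 of 24 G1/S promoters (62.5%), in 1 of 27 G2/M promoters (3.7%) and in 7.39% of all. The E-box CAGATG, which proneural factors such as ATOH1 and NEUROD1 read, stood in 18.5% of G2/M, 8.33% of G1/S and 17.2% of all promoters. Among the 16990 promoters of genes tested, the shares were 15.8% for the CHR, 38.5% for NF-Y, 9.49% for E2F and 14.9% for the E-box.

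The 5 G2/M promoters with a CHR within 60 bases of the start that follow are printed because they show the CCAAT and CHR arrangement. They run from 120 bases before to 20 bases after the start, 5′ to 3′ in the direction of transcription, in build GRCm38.p6, and capitals mark CHR and CCAAT letters on either strand. They are the called members with the largest differences that had such a site, apart from members on a chromosome left out of the choice. Kif23 lies at chr9:61946780-61946919 on the minus strand, Ttk, a spindle checkpoint kinase, at chr9:83834569-83834708 on the plus strand, Ccnb2, a mitotic cyclin, at chr9:70421535-70421674 on the minus strand, Top2a, a topoisomerase that untangles chromosomes, at chr11:99024170-99024309 on the minus strand, and Hmmr, a spindle-associated protein, at chr11:40733418-40733557 on the minus strand.
Kif23: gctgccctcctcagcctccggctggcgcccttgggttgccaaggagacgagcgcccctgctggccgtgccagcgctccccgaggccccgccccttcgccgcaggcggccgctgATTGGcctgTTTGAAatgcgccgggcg
Ttk: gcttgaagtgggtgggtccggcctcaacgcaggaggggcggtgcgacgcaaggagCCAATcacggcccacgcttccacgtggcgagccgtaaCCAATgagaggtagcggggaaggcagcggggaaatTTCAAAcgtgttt
Ccnb2: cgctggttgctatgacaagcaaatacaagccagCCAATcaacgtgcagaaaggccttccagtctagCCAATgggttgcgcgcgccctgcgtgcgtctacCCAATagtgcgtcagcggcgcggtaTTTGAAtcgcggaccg
Top2a: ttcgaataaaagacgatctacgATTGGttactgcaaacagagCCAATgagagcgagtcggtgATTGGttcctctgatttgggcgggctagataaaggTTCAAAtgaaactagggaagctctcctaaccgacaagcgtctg
Hmmr: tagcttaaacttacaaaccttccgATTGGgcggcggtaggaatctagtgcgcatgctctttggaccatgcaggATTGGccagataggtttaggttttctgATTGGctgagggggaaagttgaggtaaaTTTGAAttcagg
Their differences were −2.36 for Kif23, −1.89 for Ttk, −1.86 for Ccnb2, −1.86 for Top2a and −1.83 for Hmmr.

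The 4 printed G1/S promoters with an E2F match were chosen in the same way, by the largest differences. They run from 200 bases before to 20 bases after the start, with capitals on the E2F letters alone. Cdk1, the mitotic kinase, lies at chr10:69352893-69353112 on the minus strand, Cdk2, the kinase of S phase entry, at chr10:128705032-128705251 on the minus strand, and the helicase subunits Mcm5 and Mcm7 at chr8:75109309-75109528 on the plus strand and chr5:138171864-138172083 on the minus strand. In Mcm5 matches on both strands overlap and form a longer run. The Cdk1 promoter also holds the CHR letters, left in lower case here.
Cdk1: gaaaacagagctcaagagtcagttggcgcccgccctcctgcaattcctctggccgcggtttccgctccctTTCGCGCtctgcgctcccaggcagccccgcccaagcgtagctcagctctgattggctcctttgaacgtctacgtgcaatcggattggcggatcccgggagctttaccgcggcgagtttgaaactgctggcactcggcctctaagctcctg
Cdk2: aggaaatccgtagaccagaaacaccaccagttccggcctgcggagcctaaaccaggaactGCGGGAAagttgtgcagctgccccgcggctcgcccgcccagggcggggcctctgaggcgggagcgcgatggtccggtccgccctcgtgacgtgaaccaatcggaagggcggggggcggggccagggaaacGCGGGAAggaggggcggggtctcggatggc
Mcm5: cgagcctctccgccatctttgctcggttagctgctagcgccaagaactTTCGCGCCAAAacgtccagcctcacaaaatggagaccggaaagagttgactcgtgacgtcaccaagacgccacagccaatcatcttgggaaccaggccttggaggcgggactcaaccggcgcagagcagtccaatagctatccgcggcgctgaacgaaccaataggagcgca
Mcm7: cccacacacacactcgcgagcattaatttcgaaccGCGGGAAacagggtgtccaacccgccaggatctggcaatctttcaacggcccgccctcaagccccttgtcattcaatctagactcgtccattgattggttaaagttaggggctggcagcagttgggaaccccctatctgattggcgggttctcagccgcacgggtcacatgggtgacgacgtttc
Their differences were −1.95 for Cdk1, −1.88 for Cdk2, −1.65 for Mcm5 and −1.56 for Mcm7. Outside both lists, the shares among the 841 promoters of genes called lower were 12.6% for the CHR, 43.0% for NF-Y and 15.7% for E2F, and among the 749 of genes called higher 11.6%, 37.7% and 10.0%. A match of letters is a description and was not tested as a site.

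**Figure D2:**
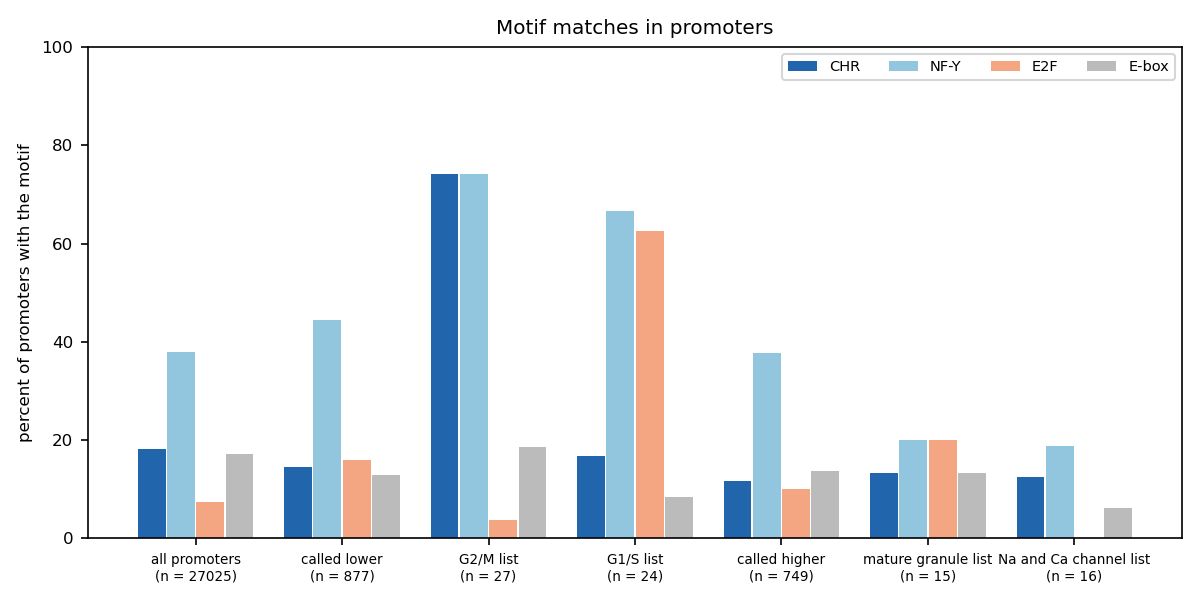
Percent of promoters, 250 bases before to 50 after the start, with at least 1 match of the CHR, NF-Y, E2F or E-box letters on either strand, for all promoters and for genes called lower or higher and members of 4 lists, called or not. The G2/M list stands at 74.1% for the CHR and the G1/S list at 62.5% for E2F, against 18.1% and 7.39% of all promoters.

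Around the G1 decision the members differed. Ccnd2, the D-type cyclin through which SHH promotes division of granule progenitors, was lower at 8.87 and 8.64 in CGN against 11.0 to 11.2 in CGNP, 5.05-fold. Cdk6, a partner kinase of D-type cyclins, differed by −1.50. Among inhibitors of these kinases Cdkn2c and Cdkn2d were called lower as well (−1.84 and −1.10), while Cdkn1b, the p27 protein known for holding granule neurons out of the cycle, had a difference of −0.20 and was not called. Cdkn1a, p21, stood at 0.96, short of 2-fold. Ccnd1, the other D-type cyclin of progenitors, had a difference of 0.42 (SE 0.21) with overlapping arrays.

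The SHH pathway itself was called in part, beside 4.9% of all genes called lower. Of 17 measured members 3 were called lower and 0 higher, with a median of −0.07. They were Mycn, which SHH induces to sustain proliferation (7.77, 7.93 and 7.77 in CGNP, 6.48 and 6.70 in CGN), Sufu, an inhibitor of GLI factors (−1.17), and Gli2, an activator (−1.11). Gli2 was not called without CGNP replicate 3 (−0.93). The standard readouts Gli1 and Ptch1 had differences of −0.07 (SE 0.16) and −0.13 (SE 0.15), and their arrays overlapped. Gli1 was near the dim level in both groups, at means of 4.42 and 4.35. Spop, an adaptor that marks GLI proteins for degradation, and Boc, an SHH coreceptor, both at 0.99, missed the 2-fold limit. In the Notch list of 20 genes Notch2 was called higher (1.87) and Id1, a factor that holds back differentiation, lower (−1.20), with the median at −0.05.

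Transcription factors of the lineage were called lower more often than higher. Of 28 measured, 6 were called lower and 1 higher, with a median of −0.14. The deposited values gave 10 lower and 0 higher, with a median of −0.61. Nhlh1, a bHLH factor of newly postmitotic granule cells, stood at 10.9, 11.0 and 11.0 in CGNP and at 9.02 and 8.60 in CGN, 4.45-fold lower. Nfia, a nuclear factor I protein of granule cell maturation, was 3.00-fold lower. Insm1, Sox4 and Sox11, which mark new neurons, fell by 1.25, 1.22 and 1.19 on the log2 scale, and the thyroid hormone target Klf9 by 1.34. Zic4, one of the zinc finger factors of the cerebellum, was 2.16-fold higher on the joint scale and was not called on the deposited values. The progenitor factor Atoh1 had a difference of −0.54 (SE 0.19, adjusted p = 0.045) and the neuronal factor Neurod1 one of 0.47 (SE 0.17, adjusted p = 0.053), neither of them 2-fold. Atoh1 was near the dim level, at means of 5.24 in CGNP and 4.70 in CGN. The lineage markers Pax6 and Zic1 were high in every array, with means of 9.99 and 12.6 in CGNP and 10.5 and 12.4 in CGN.

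Genes of early postmitotic neurons were already high in the CGNP cultures. Tubb3, neuronal tubulin, measured 12.3, 12.2 and 12.5 in CGNP and 11.0 and 11.1 in CGN, and was thus 2.40-fold lower in the neurons. Igfbpl1, a secreted protein of young neurons, was 4.67-fold lower and Elavl2, a neuronal RNA-binding protein, 2.84-fold lower. The axonal adhesion protein Cntn2 and the neuronal nuclear antigen Rbfox3 both differed by −0.97. Higher were Astn1, which neurons use to glide along glia (1.55), the adhesion protein Ncam1 (1.39) and the RNA-binding protein Elavl4 (1.02). Elavl4 was not called without CGNP replicate 1 (0.75) or CGN replicate 3 (0.69), nor with array medians (0.90). On the deposited values Cntn2 (−1.55) and Rbfox3 (−1.52) passed as lower while Ncam1 (0.82) and Elavl4 (0.80) were not called. Of the 24 measured genes of this list 3 were called higher and 4 lower, and on the deposited values 1 higher and 7 lower.

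**Figure D3:**
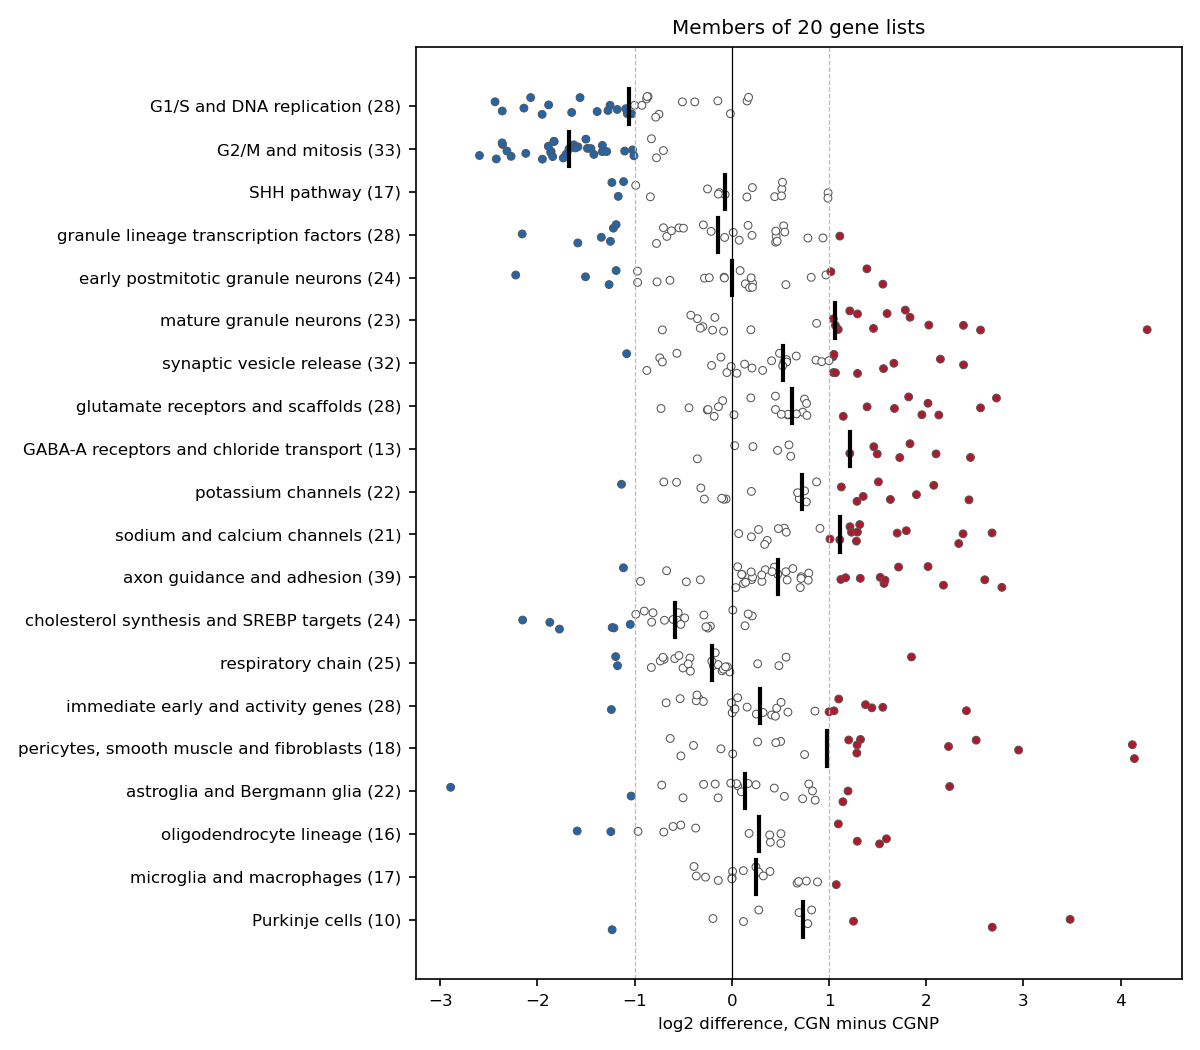
Log2 difference (CGN minus CGNP) of each measured member of 20 gene lists, with the number of members beside the name. Filled points are called genes, black bars are list medians and dashed lines mark 2-fold; the G2/M median lies at −1.67 and that of mature granule neurons at 1.07.

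Genes of mature granule neurons rose in part. Of 23 measured, 13 were called higher and 0 lower, with a median of 1.07. Vsnl1, a neuronal calcium sensor, had the largest difference of the list, 4.27 (SE 0.22, adjusted p = 6.9e-07 by limma), with 4.74, 5.37 and 4.72 in CGNP against 9.11 and 9.32 in CGN. Grin2a, the NMDA receptor subunit that increases as granule cells mature, was at 4.30, 4.09 and 4.54 in CGNP and at 7.31 and 6.43 in CGN. The CGNP values were at the dim level there. Chn2, a GTPase-activating protein for RAC, rose 5.22-fold, Nrxn3, a presynaptic adhesion protein, 4.08-fold, and Snap25, a protein of the vesicle fusion machinery, 2.45-fold. Gabra6, the GABA-A receptor subunit by which mature granule neurons are recognized, was called higher at 5.55 and 5.54 against 4.08 to 4.62, which remained low on the array. Slc17a7, the vesicular glutamate transporter of their terminals, had a difference of −0.71 and was not called. On the deposited values Slc17a7 was called lower (−1.24) and Snap25 was not called (0.74), and 8 genes of the list were called higher.

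**Figure D4:**
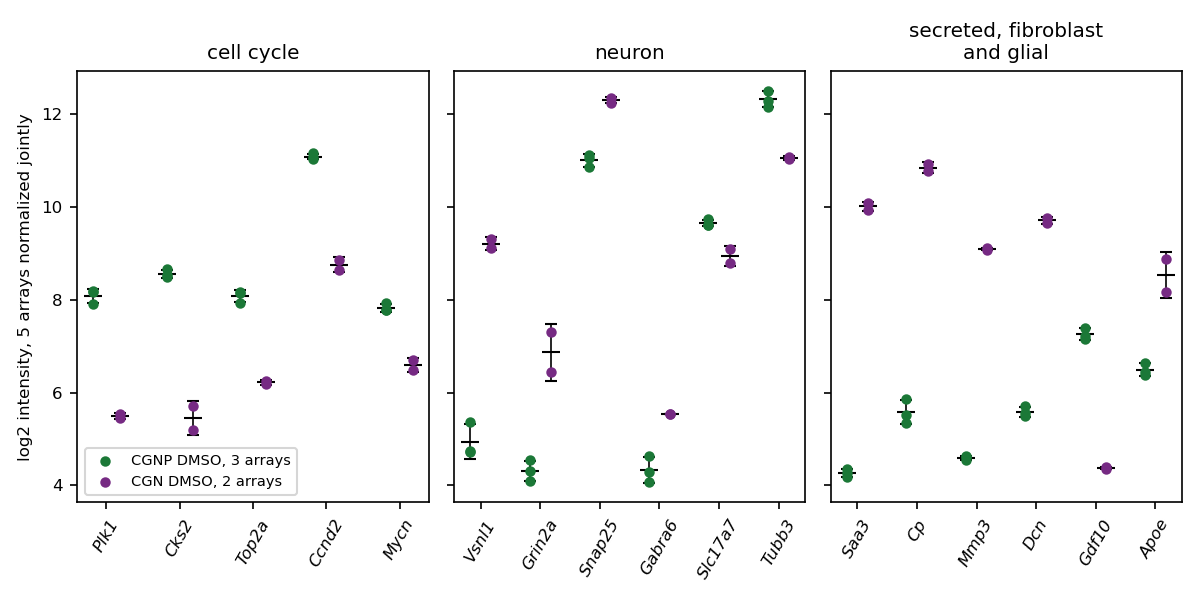
Log2 intensity of 17 genes in each of the 3 CGNP arrays (green) and the 2 CGN arrays (purple), with the group mean and SD as bars. Plk1 falls from about 8 to about 5.5 while Vsnl1 and Saa3 rise, and Tubb3, Slc17a7 and Gdf10 are lower in CGN.

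Part of the genes of synapses were higher. In vesicle release the split depended on the scaling. On the joint scale 9 of 32 members were called higher and 1 lower (median 0.53), and on the deposited values 4 higher and 5 lower (median 0.06). Rims1, a scaffold of the active zone, stood at 6.87, 7.05 and 6.65 in CGNP and at 9.30 and 9.18 in CGN, 5.22-fold higher. Syt4, an unusual synaptotagmin, was 4.43-fold higher and Pclo, another active zone scaffold, 3.18-fold. On the receiving side 9 of 28 glutamate receptor and scaffold genes were higher and 0 lower (median 0.62). Dlg2, the scaffold PSD-93, rose from 4.42, 4.39 and 4.44 to 6.96 and 7.32, 6.60-fold. The AMPA receptor subunit Gria3 rose 4.38-fold and the adhesion protein Lrrtm2 4.05-fold. Of 13 GABA-A receptor and chloride transport genes 7 were higher and 0 lower (median 1.21), led by the subunits Gabrb1 (2.46) and Gabra5 (2.10).

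Sodium and calcium channel genes were uniform in sign. On the joint scale all 21 measured sodium and calcium channel genes had a positive difference, and 12 were called higher (median 1.11, and 0.66 with 7 called on the deposited values). Fgf14, an intracellular partner of sodium channels at the axon initial segment, measured 7.49, 7.56 and 7.63 in CGNP and 10.2 and 10.3 in CGN. This was 6.40-fold (difference 2.68, SE 0.12, adjusted p = 2.8e-07 by limma). Cacna2d2, an auxiliary calcium channel subunit, rose 5.20-fold, Cacna1e, the R-type channel, 5.05-fold, and the sodium leak channel Nalcn 3.47-fold. Among 22 potassium channel genes 8 were higher and 1 lower, led by Kcnip4, a partner of A-type channels (2.44), and Kcnma1, the BK channel (2.08). Leaving out single arrays changed no direction of these called genes.

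Axon guidance and adhesion genes were called higher in 11 and lower in 1 of 39 cases, with a median of 0.47. Pcdh9, a protocadherin, rose from 5.78, 5.81 and 5.92 to 8.74 and 8.49 (6.86-fold). Sema5a, a guidance cue, rose from 5.27, 5.05 and 4.42 to 7.73 and 7.30 (6.08-fold), and Cntnap2, a neurexin relative, 4.52-fold. Robo2 (1.72) and Epha7 (2.02), receptors of guidance cues, rose as well, while Robo1 had a difference of 0.21 with overlapping arrays. Sema5a is also among 12 genes that the study named as putative targets of DOT1L, a list drawn up partly on these samples. In that list 3 were called higher, Sema5a, Pcdh17 and Cadps2, and 1 lower, Lss. Cadps2, at 1.07, lost its call on the deposited values (0.50) and without CGN replicate 1 or CGNP replicate 3. Dot1l itself had a difference of −0.21 with overlapping arrays.

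Chromatin regulators changed singly. Smarca2, the BRM ATPase of BAF remodelling complexes, measured 8.24, 8.15 and 8.19 in CGNP and 11.1 and 10.7 in CGN, 6.51-fold higher. Its alternative, Smarca4 (BRG1), had a difference of −0.06. Rcor2, a corepressor that acts with REST and LSD1 in progenitors, was 5.40-fold lower. Of the BAF subunits exchanged in postmitotic neurons, Dpf3 had a difference of 0.74, Dpf1 of 0.04, Ss18l1 of −0.33 and Actl6b of −0.69. None was called, although Actl6b passed as lower on the deposited values (−1.26). Uhrf1, which guides maintenance methylation of DNA at replication, was 3.76-fold lower, and Tet2, which oxidizes methylcytosine, 3.03-fold higher.

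For 16 pairs of a progenitor and a neuron form, the log2 ratio was formed within each array, where a shift shared by all its genes cancels. The joint scaling shifts genes by an amount that varies with their level. The ratio of a bright and a dim gene therefore still depends on it. In 8 pairs the ratio moved towards the neuron form in every CGN array, in 4 towards the progenitor form, and in 4 it overlapped. Without regard to direction 55.6% of all single genes did not overlap between the groups. The ratio of Smarca2 to Smarca4 rose most, by 2.76, from −1.81, −1.81 and −1.84 to 1.10 and 0.78. The ratio of Top2b to Top2a rose by 1.67, of Ezh1 to Ezh2 by 1.30 and of Grin2a to Grin2b by 1.17, although Grin2b rose too, by 1.39. The ratio of Neurod1 to Atoh1 rose by 1.01, with Atoh1 near the dim level. In the opposite direction went Slc17a7 against Slc17a6 (−1.24), Grin2c against Grin2b (−1.20), Cdkn1b against Ccnd1 (−0.61) and Gabra6 against Gabra2 (−0.51). Grin2c was at the dim level in both groups, with means of 4.63 and 4.83, so that its ratio followed Grin2b. Polypyrimidine tract-binding proteins, Ptbp1 and Ptbp2, gave an overlapping ratio.

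Part of the genes of sterol synthesis were lower. Of 24 measured genes of cholesterol synthesis and its SREBP regulators, 6 were called lower and 0 higher, with a median of −0.58 (−1.14 on the deposited values, with 16 called lower). Mvd, which makes isopentenyl pyrophosphate, measured 9.99, 9.98 and 10.1 in CGNP and 8.15 and 7.57 in CGN, 4.44-fold lower. Fdps, a later step towards squalene, was 3.42-fold lower and the desaturase Scd1 3.66-fold lower. On the export side 3 of 9 genes were higher, namely Apoe, which carries lipid between cells (6.45, 6.38 and 6.64 against 8.18 and 8.89), Abca1, which loads cholesterol onto it (1.81), and Mylip, which degrades lipoprotein receptors (1.34, and 0.71 and not called without CGN replicate 3). The median of that list was 0.23, and −0.30 on the deposited values. Astroglia are known as a main source of Apoe, and of 22 astroglial genes 3 were higher and 2 lower in the same cultures. The part of astroglia in the result was not tested.

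The list of the integrated stress and unfolded protein responses gave 3 higher and 4 lower of 23 (median −0.43), and 3 higher and 9 lower on the deposited values (median −0.84). The serine and asparagine enzymes Psat1 and Asns were lower (−1.73 and −1.40), as were the nutrient sensors Sesn2 (−1.76) and Ddit4 (−1.67), while the cystine transporter Slc7a11 rose by 1.99 and the reelin receptor Vldlr by 2.17. Both lists of energy genes held calls in both directions on the joint scale, where 9.58% of all genes were called. In glycolysis 3 of 19 were higher, among them Ldha (1.29) and the neuronal glucose transporter Slc2a3 (1.25), and Hk2, the hexokinase of proliferating cells, was lower (−1.20). The deposited values gave 1 higher and 3 lower there. In the respiratory chain 2 of 25 were lower and 1 higher (median −0.21), against 8 lower and 1 higher on the deposited values (median −0.77). In the list of MYC targets and ribosome biogenesis 1 of 25 was called, Bop1, at −1.67.

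Genes induced by activity were higher in 7 and lower in 1 of 28 cases on the joint scale, with a median of 0.29. On the deposited values 3 were higher and 2 lower (median −0.03), and in the SGC0946 cultures 1 higher and 2 lower. Nr4a2, an orphan nuclear receptor, measured 7.85, 7.63 and 7.52 in CGNP and 10.2 and 9.92 in CGN, 5.33-fold higher. Nr4a3 was 2.94-fold and Npas4, a factor that calcium influx induces in neurons, 2.72-fold higher. Egr2 was lower (−1.24, and −0.85 and not called without CGN replicate 3), and Arc (0.25) and Egr1 (0.03) were not called. Of 19 p53 target and cell death genes 4 were called higher and 1 lower, with a median of 0.10. On the deposited values 2 were higher and 4 lower (median −0.20). In that list the death regulator Bcl2 rose 4.62-fold and Plk2, a p53 and activity target, 5.26-fold. Igf1r, the receptor of insulin-like growth factor 1, was 2.99-fold higher and the thyroid hormone receptor Thra 2.04-fold. Thra was not called without CGN replicate 1 (0.97) or CGNP replicate 3 (0.94), and neither Thra nor Npas4 was called on the deposited values (0.53 and 0.88).

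The largest increases among genes with an assigned name included several secreted proteins. Saa3, an acute phase protein, measured 4.27, 4.35 and 4.19 in CGNP, at the dim level, and 10.1 and 9.95 in CGN, a difference of 5.75 (SE 0.17, adjusted p = 4.4e-08 by limma). Cp, the copper-binding ferroxidase, rose from 5.35, 5.87 and 5.52 to 10.8 and 10.9, and the matrix metalloproteinases Mmp3 and Mmp13 rose by 4.51 and 4.33. Lcn2, which binds bacterial iron carriers, rose by 3.80 and the lipid carrier Apod by 4.29. Syne1, a giant nuclear envelope protein abundant in cerebellar neurons, rose 19.2-fold, from 6.82, 6.81 and 6.75 to 11.1 and 11.0. Of the 1037 genes called higher, 266 had a CGNP mean at or below the dim level, and of those called lower 183 had a CGN mean there. Their folds rest on a group near the background of the array.

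Among the largest decreases was Tac2, a tachykinin precursor, at 7.76, 7.71 and 7.71 in CGNP and at 4.21 and 4.35, the dim level, in CGN. Lmcd1, a transcriptional cofactor with LIM domains, fell 10.6-fold, Chrnb4, a nicotinic receptor subunit, 9.48-fold, and Mfap4, a protein of elastic fibres, 8.71-fold. Gdf10, a growth factor gene of Bergmann glia, fell from 7.22, 7.40 and 7.16 to 4.35 and 4.38. The largest decrease was that of the smell receptor gene Olfr1454 (−4.04, SE 0.54), whose CGNP arrays ranged from 8.58 to 10.7 and whose difference ran from −3.49 to −4.71 with single arrays left out. In the SGC0946 arrays its difference was −1.80 and not called. Of the other smell receptor genes 8 were called higher and 5 lower, and with it 1.01% of 1390 were called against 9.58% of all genes. The Y-linked gene Eif2s3y was 8.24 to 8.96 in CGNP and 6.56 and 4.27 in CGN (difference −3.13, and −4.34 and −2.03 without CGN replicate 1 or 3), Kdm5d and Uty were lower too, and Xist, which is made in females, was 8.94 to 9.98 and then 11.0 in both CGN arrays. Every CGNP array thus read both Eif2s3y and Xist well above the dim level. The labels give no sex of the mice, and whether a mouse label covers more than 1 animal was not tested.

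Markers of other cells moved with these groups. Of 18 genes of pericytes, smooth muscle and fibroblasts 9 were called higher and 0 lower, with a median of 0.98, and the summed signal of the list ran from 1366 to 1514 in CGNP and from 3542 to 4692 in CGN, in linear intensity. Dcn, a collagen-binding proteoglycan, was at 5.55, 5.70 and 5.49 in CGNP and at 9.67 and 9.77 in CGN, 17.7-fold. Lum, its relative, was 17.4-fold higher, and the collagens Col1a2 and Col3a1 7.73-fold and 4.69-fold. The contractile markers Acta2 and Tagln had differences of −0.52 and −0.11. In bulk samples more cells of a type and more RNA per cell cannot be told apart. The part of fibroblasts in the rise of Saa3, Mmp3, Lcn2 and other secreted products was not tested.

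Glial lists gave calls in both directions. Of 22 astroglial genes 3 were higher and 2 lower (median 0.13). With the deposited values 1 was higher and 3 lower (median −0.20). The summed signal ran from 14133 to 15371 in CGNP and from 16156 to 25582 in CGN, in linear intensity. Slc4a4, a bicarbonate transporter of astrocytes, was 7.53, 7.77 and 7.25 in CGNP and 9.33 and 10.2 in CGN, and Slc1a3, the glutamate transporter of Bergmann glia, was 2.29-fold higher (difference 1.20, and 0.81 and not called without CGN replicate 3). Gfap and Aqp4 overlapped between the groups, with Aqp4 spread over an SD of 1.12 in CGN. In the oligodendrocyte list the progenitor genes Olig1, Olig2, Pdgfra and Gpr17 were higher (1.59, 1.29, 1.10 and 1.52), Pdgfra not without CGN replicate 3 (0.85), while the myelin genes Mobp and Mag were lower (−1.59 and −1.24). The deposited values gave 2 higher and 4 lower in this list, with Olig2 (0.80) and Pdgfra (0.54) not called and the myelin gene Mbp called lower (−1.22). Microglial genes gave 1 call of 17, Trem2, which was lost without CGNP replicate 2 or 3 (0.99 each) or CGN replicate 3 (0.82), and endothelial genes 1 higher and 1 lower of 14. The choroid plexus gene Ttr read 11.0 in CGN replicate 1 and 7.32 in replicate 3, so that its difference of 3.91 (SE 0.81) was 2.10 without replicate 1 and 5.84 without replicate 3, and the other 8 genes of that list were not called.

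Genes associated with Purkinje cells were uneven. Of 10 measured, 3 were called higher and 1 lower, with a median of 0.74. The deposited values gave the same counts, with a median of 0.35. The summed signal ran from 1210 to 1435 in CGNP and from 2834 to 4228 in CGN, in linear intensity. Calb1, a calcium buffer, was at 6.06, 7.09 and 6.38 in CGNP and at 9.58 and 10.4 in CGN, 11.2-fold, and Car8, which binds the IP3 receptor, rose 6.41-fold. Slc1a6, a glutamate transporter, was called higher (1.25, and 0.77 and not called without CGN replicate 3) and Homer3, a postsynaptic scaffold, lower (−1.23). Ppp1r17, a defining marker, was at the dim level in both groups, with means of 4.17 and 4.45. Among 15 genes listed for GABAergic interneurons and for unipolar brush cells, 2 were called higher and 0 lower. Kit, a receptor tyrosine kinase, measured 6.86, 6.56 and 6.70 in CGNP and 7.91 and 8.57 in CGN, a difference of 1.53 (1.12 and called on the deposited values). Lhx5, a homeobox factor, was 2.01-fold higher and was not called on the deposited values (0.86), with array medians (0.97) or without CGNP replicate 1 (0.81), CGNP replicate 3 (0.91) or CGN replicate 3 (0.77). The interneuron markers Pax2, Gad1, Gad2 and Slc32a1 were not called, although Gad1 varied with an SD of 1.25 between the 2 CGN arrays.

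Long genes were called higher more often than short ones. For protein-coding genes with a RefSeq span in GRCm38.p6, 2.10% of those under 10 kb were called higher, 3.30% from 10 to 50 kb, 5.92% from 50 to 100 kb, 11.2% from 100 to 200 kb and 21.3% over 200 kb. The share called lower ran the other way, at 6.45%, 6.22%, 3.73%, 2.99% and 1.74%, and on the deposited values it was highest from 10 to 50 kb. The median span was 63.1 kb for genes called higher, 14.2 kb for genes called lower and 18.7 kb for all 18987. Long genes are known to include many synaptic and adhesion genes. Without the 204 genes of the neuronal lists the share called higher was still 18.5% over 200 kb against 2.07% under 10 kb. On the deposited values the shares called higher were 12.6% and 1.14%, and with array medians 15.1% and 1.44%. Restricted to genes whose mean in a group was above the dim level they were 27.5% and 4.84%.

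**Figure D5:**
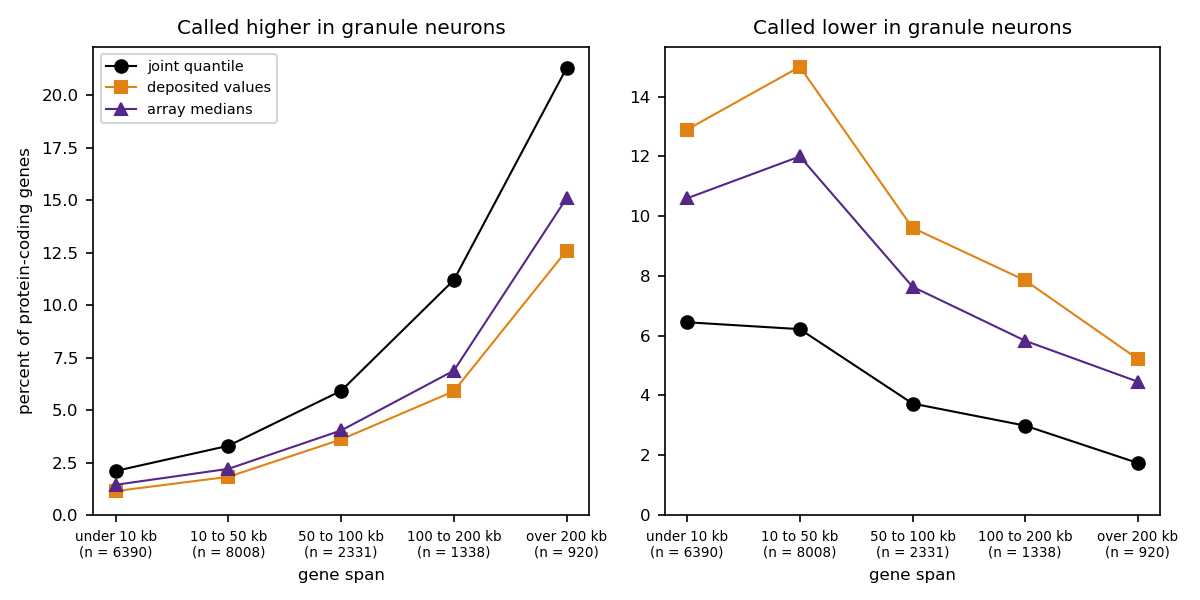
Percent of protein-coding genes called higher (left) and lower (right) in CGN by gene span, for 3 scalings of the arrays, with the number of genes under each bin. The share called higher rises from 2.10% to 21.3% on the joint scale, and from 1.14% to 12.6% on the deposited values.

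Small nucleolar RNAs, which guide modification of ribosomal RNA, stood out among the gene classes by the share called higher on the joint scale. Other scalings were not counted by class. Of 81 measured 19 were called higher (23.5%) and 0 lower, against 4.65% and 5.55% of 18987 protein-coding genes. Snora75 rose from 7.48, 7.29 and 7.25 to 11.3 and 10.8, Snora62 from 7.89, 7.81 and 7.85 to 10.8 and 10.2, and Snord1b from 10.6, 10.4 and 10.3 to 11.7 and 12.1. These 3 were picked after their values were seen. MicroRNA genes were called higher in 50 of 478 cases (10.5%) and lower in 5, and long noncoding RNAs in 59 and 12 of 1995. Many such RNAs lie inside introns of other genes, and signal of host and guest may share probes, which was not tested.

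The same contrast was repeated in the cultures that received SGC0946, with 2 CGN and 3 CGNP arrays of the same experiments and partly the same mouse labels. SGC0946 lasted 4 h in CGNP and 44 h in CGN. The 2 CGN arrays, replicates 4 and 6, are labelled with 5 and 7 days in vitro in one field and 1 day in another, and replicate 6 came from a P9 mouse, so age and treatment cannot be told apart when the CGN arrays of both treatments are set side by side. The SGC0946 contrast was normalized and fitted over 10 arrays, DMSO included, and the DMSO contrast over 5. Their counts therefore come from unlike fits that are not independent. Fitted over the 10 arrays, the DMSO contrast gave 2097 calls. With SGC0946 1895 genes were called (8.54%), 854 higher (3.85%) and 1041 lower (4.69%). Of these 1407 were also called in DMSO in the same direction, which is 66.2% of the DMSO calls and 74.2% of the SGC0946 calls, and 0 were called in opposite directions. All 33 measured G2/M genes were called lower with SGC0946, while sodium and calcium channel genes gave 5 calls and mature granule genes 10 higher and 1 lower. Vsnl1 had a difference of 3.27 and Grin2a one of 1.54 there. Tested directly over 10 arrays, the difference between the contrasts passed an adjusted p of 0.05 for 1 gene, and 1312 genes had an unadjusted p below 0.05 by limma.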

How the data were processed

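Transcript levels of primary cerebellar cultures were measured on Mouse Gene 2.0 ST arrays (Affymetrix), and per the submitters' processing notes in the labels RMA and Partek were used. The deposited values are on the log2 scale, RMA signals per probe cluster that the authors normalized before deposit. Their distributions differed more between the CGNP and CGN experiments than within them, so the arrays may have been normalized apart. Depth does not apply to arrays, and the number of arrays (3 and 2) limits the precision. Other deposited tables hold the same values with the authors' own comparisons (p, q and fold) and were not used. Here the 5 arrays were quantile normalized jointly, the brightest cluster of each gene with 1 symbol was kept (22180 genes), and groups were compared with lmFit and eBayes (limma 3.58.1, R 4.3.3, intensity trend) with Benjamini-Hochberg adjustment over all genes. No genes were filtered, and no batch could be modelled. Described genes were the 15 called genes with the largest difference in each direction, passing over predicted or numbered symbols, up to 5 members of each of 38 lists with the largest difference, members of the pairs, putative DOT1L targets and cell type markers. Other genes named, among them those with printed promoters, were picked with their values known. The members, the lists and the tests were chosen with earlier results of these data known. Promoters and gene spans are RefSeq's, build GRCm38.p6. The fit was tested on simulated data. Alternatives were other scalings, variances, thresholds, cluster rules and single arrays left out.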

Additional observations from a re-analysis of the deposited data

Results flagged for a closer look

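The contrast between granule neurons and progenitors of Hpgd, an enzyme that breaks down prostaglandins, differed between DMSO and SGC0946 arrays. The difference was 0.33 in DMSO and −1.51 in SGC0946. The difference between the contrasts was 1.84 (SE 0.23, adjusted p = 0.039 by limma over all genes), and Hpgd was the 1 gene that passed in that test. SGC0946 lasted 4 h in CGNP and 44 h in CGN. The CGN arrays of the 2 treatments also differ in labelled culture age and in mouse age, which cannot be told apart from treatment.

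Probe clusters with no single gene symbol, which the comparison by gene leaves out, also gave calls by the same rule. Of 10951 such clusters 535 were higher and 294 lower in CGN. Of 23521 clusters with 1 gene symbol 1160 were higher and 1125 lower. The share called higher was thus about the same in both, and the share called lower was smaller without a single symbol.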

How the results depend on the processing

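Deposited values gave 613 genes called higher and 2480 lower, with 8 mature granule, 7 sodium and calcium channel and 16 cholesterol genes called. Array medians gave 1994 lower, 8 mature granule and 14 cholesterol genes. Higher calls made up 48.8% of all calls on the joint scale, 19.8% on the deposited values and 26.7% with array medians. Ordinary variance, which does not borrow spread between genes, called 1411 genes, 679 of them higher, and 5 fibroblast and pericyte genes. Ordinary variance with an unadjusted p and 1.5-fold, the study's limits, called 4461 genes (2030 higher, 2431 lower), adjusted p at any fold 7280 (3328 and 3952) and 4-fold 290 (200 and 90). With single arrays left out, 2068 to 2320 genes were called, 1017 to 1155 higher and 1051 to 1198 lower, the lone CGN array being assumed to vary like CGNP. Of 172 called genes that were described, 0 changed sign under any setting, and 24 lost their call on deposited values, 18 with array medians, 50 with ordinary variance and 3 to 14 with an array left out. Of 92 uncalled ones 15 changed sign on deposited values and 8 with array medians. The share called higher rose from each span bin to the next under all 3 scalings. No paired analysis was possible because CGNP and CGN cultures share no mouse labels or culture numbers. With 2 CGN cultures, and 3 CGNP arrays of 2 labelled mice, differences near 2-fold and genes at the dim level are the least certain.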

Other observations

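The 2 CGN arrays whose labels name both treatments, replicates 2 and 5, lay with the other CGN arrays for the cell cycle genes. On a scale common to all 12 culture arrays Plk1 read 4.91 and 5.19 there, against 5.29 to 5.52 in the other CGN arrays and 7.86 to 8.12 in the CGNP arrays. Vsnl1 read 8.74 and 7.70 there, between 7.43 and 9.54 of the other CGN arrays, and Saa3 read 9.60 and 9.21. Their treatment was not assigned.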
